A study of Mus musculus with 28 samples.

Results

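The genes Cxcl1, Ccl2, Ccl5 and Ccl7 encode secreted chemokines, the small proteins that guide leukocytes along a gradient towards their source. They were chosen by name, and all 4 were found in both tables of expression values, among 12721 genes in the in vitro table and 12948 in the co-culture table. All libraries came from cultures of MC38, a colon adenocarcinoma line of C57BL/6 mice, with or without added T cells, and were read from the 3′ end of transcripts. The in vitro table has 5 groups of 2 libraries, treated with TNF, with IFNG, with the 2 cytokines at once (TNF + IFNG) or with supernatant taken from a co-culture, or left untreated. The co-culture table has 3 groups of 3 libraries: co-cultures of MC38 and OT1 T cells under isotype antibody, the same under an antibody to PD1, an inhibitory receptor of T cells, and MC38 alone. OT1 cells carry a transgenic T cell receptor specific for a peptide of ovalbumin. Cytokines and T cells acted for 6 h per the labels, which give no time for the supernatant. Nothing in the labels shows that replicates are separate cultures, and p-values measure the spread between these libraries, which may be technical.

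Cxcl1 is the main mouse attractant of neutrophils and acts through the receptor CXCR2. Ccl2 and Ccl7 attract monocytes, mainly through CCR2, which drives their exit from the bone marrow. Ccl5 attracts T cells and monocytes and is made by tumour cells as well as by activated CD8 T cells. TNF induces such genes through the transcription factor NF-kB, whereas IFNG induces the factor IRF1, which acts together with NF-kB at some of them. Their transcripts are also governed by decay: AU-rich elements, repeats of ATTTA in the 3′ UTR, are bound by the protein of Zfp36, which speeds the removal of the message.

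Cxcl1 lies on chromosome 5 between Cxcl15 and Cxcl2 (GRCm38, chr5:90891241-90893115, plus strand). Ccl2 (chr11:82035571-82037453, plus strand) and Ccl7 (chr11:82045712-82047525, plus strand) lie 8258 bases apart. Ccl5 lies 1478252 bases beyond Ccl7 on the same chromosome (chr11:83525778-83530518, minus strand). None of the 50-base words in the 4 genes' transcripts occurred in a transcript of another gene, on either strand. Copies with mismatches or outside annotated transcripts were not searched for. The body of Ccl2 overlaps that of Gm17268, annotated as protein-coding on the opposite strand and as the coding gene next before Ccl7. By the same search the annotated transcripts of Ccl2 and Gm17268 share no such word.

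Of the 4 genes only Cxcl1 had a promoter to show, and it holds a match to the site of the transcription factor that TNF activates. The promoters of Ccl2, Ccl5 and Ccl7 were not searched. These are the 250 bases before the start site in the RefSeq table (GRCm38.p6, chr5:90890995-90891244, plus strand), which matched 1 of the 4 genes. Capitals mark the run of bases from -71 to -61 that matches the NF-kB consensus on both strands, GGGAATTTCC on the gene's strand and GGGAAATTCC on the other, which overlap.
Cxcl1 promoter: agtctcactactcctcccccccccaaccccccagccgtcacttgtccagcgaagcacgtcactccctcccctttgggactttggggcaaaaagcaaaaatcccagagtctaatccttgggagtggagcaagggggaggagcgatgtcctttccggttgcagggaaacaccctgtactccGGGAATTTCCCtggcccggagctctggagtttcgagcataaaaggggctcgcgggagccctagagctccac
The consensus, written by its name since it has degenerate letters, occurred on either strand in 3.90% of 32851 promoters of this length and the exact GGGAATTTCC in 0.0852%. That exact string was taken from the Cxcl1 promoter itself. A match describes the sequence and does not show binding.

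The 3′ UTRs are shown because they differ in the ATTTA elements that mark a transcript for decay. Capitals mark ATTTA, and each line gives the first 30-base stretch with the most ATTTA, which lies in the last exon (GRCm38, gene strand, DNA letters).
Cxcl1 3′ UTR, chr5:90892602-90892631, plus strand: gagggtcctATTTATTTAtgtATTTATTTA
Ccl2 3′ UTR, chr11:82037193-82037222, plus strand: tgatgccttaattaatattaaacttATTTA
Ccl7 3′ UTR, chr11:82047242-82047271, plus strand: tggtctttaagttattaatatttttATTTA
The Cxcl1 3′ UTR of 592 bases held 7 ATTTA, or 11.8 per kb, a density above that of 99.5% of 19925 genes. By count, 14.0% of genes held as many or more. Ccl7 held 2 in 435 bases, or 4.60 per kb, a density above that of 90.7% of genes. Ccl2 held 1 in 275, or 3.64 per kb, above 84.5%, and Ccl5 held 0 in 199. The median over all genes was 1, or 1.35 per kb. The 4 genes thus ranged from among the densest to none on this feature, which was counted and not tested for an effect.

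Values are log2 CPM, read counts scaled to a common library total and put on the log2 scale, not divided by length. Transcripts may differ in capture, so levels are compared between groups and not between genes. The tables were normalized separately, and every test was made within 1 of them. The depth implied by the steps of the low values was 3360000 to 11220000 reads in vitro and 3730000 to 10960000 for co-cultures and their controls. The lowest depths were those of the second TNF + IFNG library and the third library of MC38 alone, and the bearing of depth on their values was not tested. Of MC38 alone, the third library stood apart from its group, with a correlation of 0.92 to its 2 mates, which reached 0.97 with each other. It also held T cell transcripts, with 85.8 CPM summed over the 16 of 20 T cell markers measured, against 5.09 and 5.27 CPM in the other libraries of MC38 alone and 175 to 222 CPM in the co-cultures. Ifng, which is among these markers, stood at 1.85 log2 CPM in the third library and at 6.27 to 6.66 in the co-cultures. Cd3d stood at 2.19 in the third library and at 1.45 to 2.50 in the co-cultures, and Gzmb at 3.40 and at 4.32 to 5.14. The sum is therefore no measure of the share of T cells. In vitro, the pair of supernatant libraries correlated at 0.954, while the first reached 0.968 with an untreated library and the second 0.970 with an IFNG library. Both TNF + IFNG libraries correlated at 0.948, while the first of them reached 0.966 with the second supernatant library. The labels of the third anti-PD1 library contradict each other: its title calls it untreated, and its description, by which it was placed, names the anti-PD1 column. In the isotype group, 1 library is named OT2 in place of OT1. Titles of the co-culture libraries name the antibody and not OT1, which stands in their descriptions and column names, whereas 6 libraries not analysed here have titles that join MC38 and OT1 and descriptions that name OT1. Epithelial markers were low in these colon carcinoma cells, with 5 of 10 measured in co-culture, at 1.61 to 33.3 CPM in sum, and 1 of 10 in vitro.

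**Figure D1:**
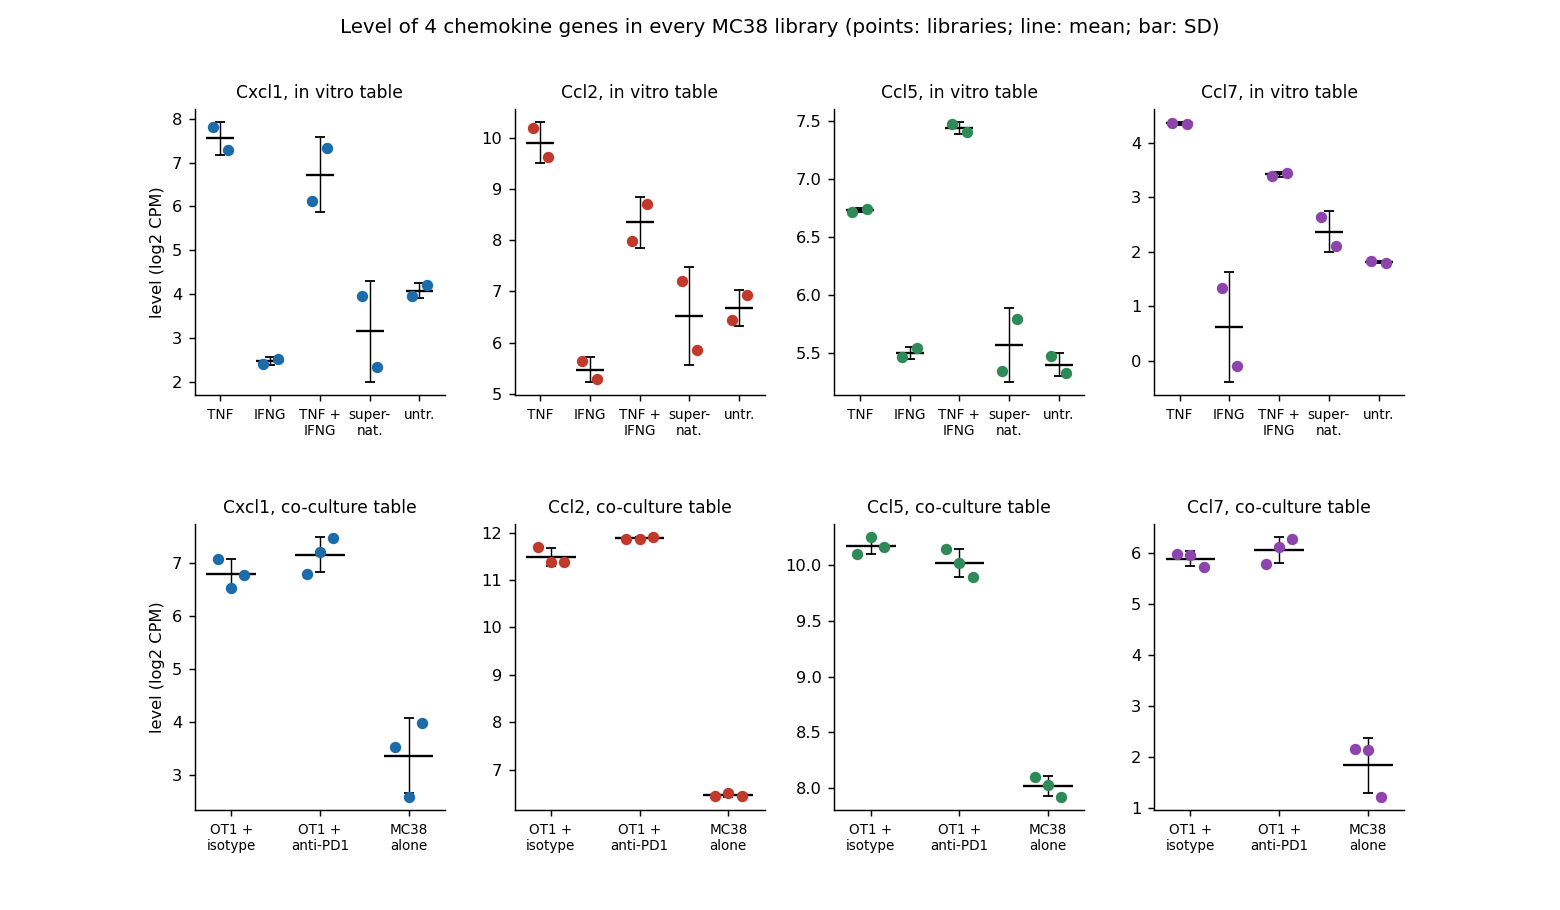
Level of each gene (log2 CPM) in every library of the in vitro table (top row) and the co-culture table (bottom row). Points are libraries, lines are group means and bars are SD (n = 2 or 3). Cxcl1 and Ccl2 stood highest with TNF in vitro and Ccl5 highest with both cytokines, and all 4 genes stood higher with OT1 T cells than in MC38 alone. Each panel has its own scale, which does not start at 0; supernat. is supernatant and untr. is untreated.

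TNF alone gave high levels of all 4 chemokines, with the lowest TNF library above the highest untreated library for each of them, a pattern that 21.5% of all genes showed. Cxcl1 stood at 7.81 and 7.29 log2 CPM with TNF, against 3.96 and 4.20 in untreated cells. Ccl2 stood at 10.18 and 9.62 with TNF, against 6.43 and 6.92 in untreated cells. The neutrophil and the monocyte attractant thus both rose, 11.1-fold for Cxcl1 (log2 change 3.47 ± 0.52, SE; limma adjusted p = 0.0417) and 9.34-fold for Ccl2 (3.22 ± 0.43, adjusted p = 0.0225). Ccl5 stood at 6.72 and 6.74 log2 CPM with TNF, against 5.47 and 5.33 in untreated cells. Its change was the smallest of the 4, a rise of 2.52-fold (1.33 ± 0.16, adjusted p = 0.0160). Ccl7 stood at 4.37 and 4.34 log2 CPM with TNF, against 1.83 and 1.79 in untreated cells. That is a log2 difference of 2.55 ± 0.42, or 5.85-fold, which did not pass the threshold of 0.05 (adjusted p = 0.0598); the untreated level rests on about 24 and 28 reads. Ccl7 did pass in 4 of 17 alternatives: with only these 2 groups fitted (adjusted p = 0.00693), under scaling to housekeeping genes (0.0424) and without the second (0.0143) or the first (0.0174) IFNG library. Hence 3 of the 4 passed, where 0.259% of all 12720 genes tested were called higher. The number of calls fell to 0 without either of the TNF libraries, either of the untreated libraries, or the intensity trend in the fit, while the log2 change kept within 3.21 and 3.73 for Cxcl1, 2.94 and 3.51 for Ccl2 and 1.26 and 1.40 for Ccl5 over all alternatives.

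IFNG alone left Ccl5 near its untreated level and gave the lowest mean levels of the other 3 genes. Cxcl1 stood at 2.41 and 2.54 log2 CPM with IFNG, against 3.96 and 4.20 in untreated cells. Ccl2 stood at 5.64 and 5.30 with IFNG, against 6.43 and 6.92 in untreated cells. Ccl7 stood at 1.33 and -0.10 with IFNG, about 28 and 8 reads, against 1.83 and 1.79 in untreated cells. For these 3 genes both IFNG libraries lay below both untreated libraries, as they did for 25.7% of all genes. The log2 differences were -1.61 ± 0.52 for Cxcl1, -1.21 ± 0.43 for Ccl2 and -1.19 ± 0.42 for Ccl7, and none passed limma's test across all genes (adjusted p = 0.430, 0.435 and 0.432). Ccl5 had 5.47 and 5.54 log2 CPM with IFNG, against 5.47 and 5.33 in untreated cells, a difference of 0.10 ± 0.16 (95% interval -0.27 to 0.48; adjusted p = 0.828). No member was therefore called, where 0.354% of genes were, all of them higher; with only these 2 groups in the fit, Cxcl1 (adjusted p = 0.0148) and Ccl2 (0.0416) passed as lower, and Cxcl1 (0.0421) did with library weights. The myeloid transcripts S100a8 and S100a9 were uneven among these libraries, and the 4 of 10 myeloid markers measured summed to 157 CPM in the second IFNG library and 71.5 CPM in the second TNF library, against 3.03 to 13.7 CPM in the others; their part in the results was not tested.

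With TNF and IFNG together all 4 chemokines rose over untreated cells. Ccl5 had the highest level of any in vitro group, 7.48 and 7.41 log2 CPM with both cytokines, against 5.47 and 5.33 in untreated cells. That was a 4.12-fold rise (2.04 ± 0.16, adjusted p = 0.000343), which passed in each of 17 alternatives. Cxcl1 stood at 6.12 and 7.33 with both cytokines, against 3.96 and 4.20 in untreated cells, and rose 6.26-fold (2.65 ± 0.52, adjusted p = 0.0266). Its 2 libraries with both cytokines differed by 1.22, more than 89.6% of genes differed between them, and its log2 change was 3.26 from the second library alone and 2.04 from the first alone. Ccl2 stood at 7.99 and 8.70 with both cytokines, against 6.43 and 6.92 in untreated cells, and rose 3.17-fold (1.67 ± 0.43, adjusted p = 0.0468). Ccl7 stood at 3.39 and 3.46 with both cytokines, against 1.83 and 1.79 in untreated cells, and rose 3.05-fold (1.61 ± 0.42, adjusted p = 0.0482). All 4 members thus passed, in a comparison where 4.77% of genes were called higher. The adjustment is more lenient where more genes are called, 1147 in either direction here against 35 with TNF alone. For Ccl7 the unadjusted limma p was 0.00411 here. With TNF alone it was 0.000202, at a larger log2 change of 2.55, yet Ccl7 did not pass there. The count of 4 therefore does not show a firmer rise of Ccl7 with both cytokines than with TNF alone. Beside Ccl5, the calls of the other 3 were near the threshold: the count was 1 without either untreated library or without the second library with both cytokines, 2 without either TNF library, either IFNG library or the first library with both cytokines, 1 without the intensity trend, and 2 with library weights or with only these groups fitted.

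Set against IFNG alone, adding TNF raised all 4 genes. The rise was 19.1-fold for Cxcl1 (4.25 ± 0.52, adjusted p = 0.0190), the second largest among 12720 genes. It was 7.32-fold for Ccl2 (2.87 ± 0.43, adjusted p = 0.0436), 6.97-fold for Ccl7 (2.80 ± 0.42, adjusted p = 0.0436) and 3.84-fold for Ccl5 (1.94 ± 0.16, adjusted p = 0.00295). Only 0.197% of genes were called higher in this comparison, 25 in all, and these 4 were among them. The count of 4 fell to 1 without either untreated library, either TNF library, the second IFNG library or the second library with both cytokines, and to 2 without the first IFNG library; Ccl5 passed in each of these. It was also 1 without the intensity trend, 2 with the stricter filter on low values and 0 with only the 2 groups fitted. Leaving out the first library with both cytokines gave 4.86 for Cxcl1 on the log2 scale and leaving out the second gave 3.64, while the change of Ccl7 was 3.52 without the first IFNG library and 2.09 without the second.

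Set against TNF alone, adding IFNG gave Ccl5 a higher and the other 3 genes a lower level, with no call. The log2 differences were 0.71 ± 0.16 for Ccl5 (95% interval 0.34 to 1.08), -1.56 ± 0.43 for Ccl2 (-2.53 to -0.58), -0.94 ± 0.42 for Ccl7 (-1.89 to 0.01) and -0.83 ± 0.52 for Cxcl1 (-2.02 to 0.37). Adjusted over all genes, limma's p was 0.155 for Ccl5, 0.183 for Ccl2, 0.305 for Ccl7 and 0.445 for Cxcl1, in a comparison where 0.417% of genes passed. Both libraries with TNF + IFNG lay above both TNF libraries for Ccl5, as for 23.8% of genes, and below them for Ccl2 and Ccl7, as for 22.2%, while the groups overlapped for Cxcl1. The interaction measures how far the log2 change with both cytokines departs from the sum of the 2 single log2 changes, where folds multiply. For Ccl5 it was 0.61 ± 0.23, and for Cxcl1 0.78 ± 0.74, Ccl2 -0.35 ± 0.61 and Ccl7 0.25 ± 0.59. None passed (0.0157% of genes did), and the adjusted p of Ccl5 was 0.962. The comparisons with untreated cells share the same 2 control libraries, so they are not independent of each other.

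**Figure D2:**
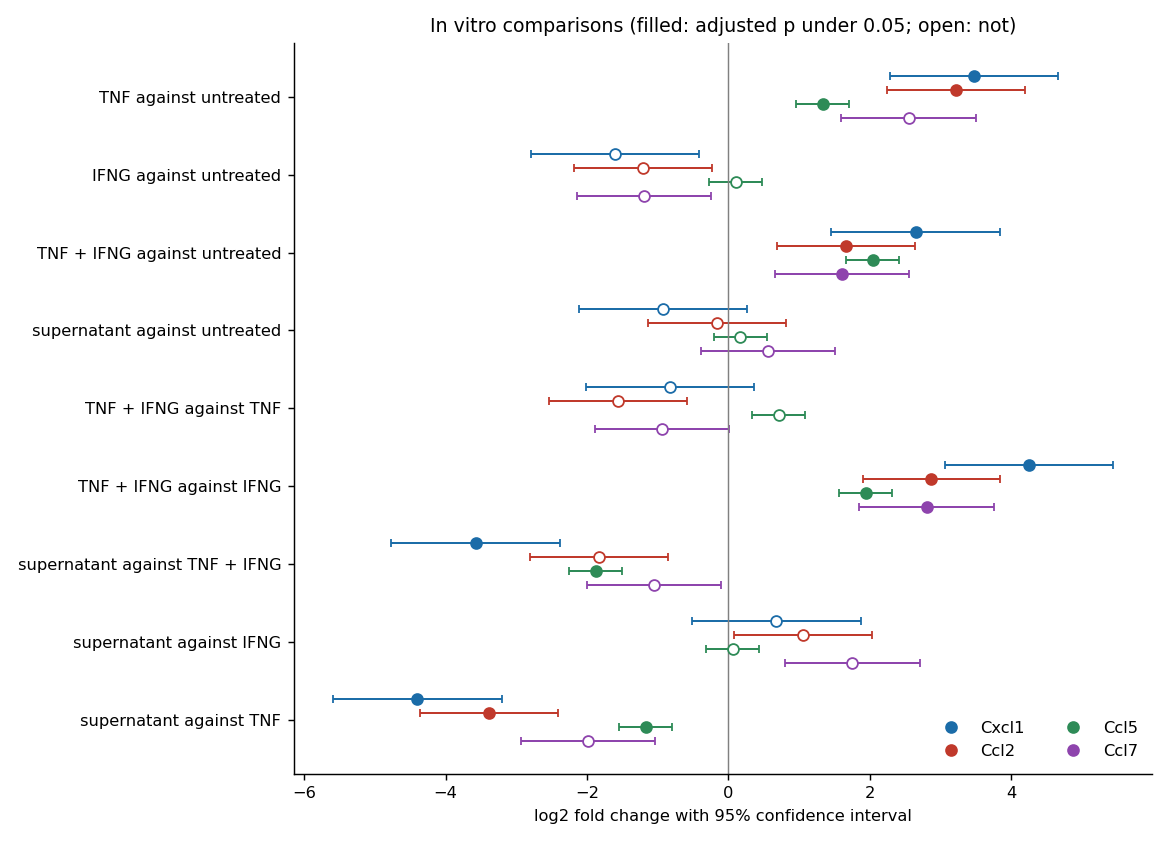
Log2 fold change (x axis) of each gene in the 9 in vitro comparisons between groups, with the 95% confidence interval from limma; filled points passed an adjusted p of 0.05. Against TNF alone, TNF + IFNG stood higher for Ccl5 and lower for Ccl2, Ccl7 and Cxcl1, with all 4 points open.

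Supernatant of the co-culture gave no detectable change in any of the 4 genes against untreated cells, and its 2 libraries disagreed on Cxcl1 and Ccl2. Cxcl1 stood at 3.97 and 2.33 log2 CPM with supernatant, against 3.96 and 4.20 in untreated cells. Ccl2 stood at 7.20 and 5.84 with supernatant, against 6.43 and 6.92 in untreated cells. The 2 supernatant libraries differed by 1.63 for Cxcl1, more than did 95.7% of genes, and by 1.35 for Ccl2, more than did 93.6%. The first lay within the range of untreated cells for Cxcl1 and the second lay below both IFNG libraries. Ccl5 stood at 5.34 and 5.79 and Ccl7 at 2.64 and 2.11 with supernatant, against 5.47 and 5.33 for Ccl5 and 1.83 and 1.79 for Ccl7 in untreated cells. The log2 differences were -0.93 ± 0.52 for Cxcl1 (95% interval -2.12 to 0.27), -0.16 ± 0.43 for Ccl2 (-1.13 to 0.82), 0.17 ± 0.16 for Ccl5 (-0.21 to 0.54) and 0.56 ± 0.42 for Ccl7 (-0.39 to 1.51), with adjusted p of 0.864, 0.955, 0.878 and 0.864. In this comparison 0.448% of genes were called, all higher.

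Against TNF alone the supernatant libraries were lower for all 4 genes. In log2 units Cxcl1 fell by 4.40 ± 0.52 (adjusted p = 0.00774), the third largest drop of all genes, Ccl2 fell by 3.38 ± 0.43 (adjusted p = 0.00955) and Ccl5 fell by 1.17 ± 0.16 (adjusted p = 0.0160). Ccl7 differed by -1.99 ± 0.42 (adjusted p = 0.128), and passed without the second (0.0200) or the first (0.0223) IFNG library. These 3 calls compare with 0.22% of genes called lower; the count was 0 without the first TNF library, 1 without the second, and 0 with only the 2 groups fitted. Without the first supernatant library the log2 change was -5.22 for Cxcl1 and -4.06 for Ccl2, and without the second -3.58 and -2.71. Against TNF + IFNG, Ccl5 fell by 1.88 ± 0.16 (adjusted p = 0.00389) and Cxcl1 fell by 3.57 ± 0.52 (adjusted p = 0.0475), whereas Ccl2 (-1.82 ± 0.43, adjusted p = 0.134) and Ccl7 (-1.05 ± 0.42, adjusted p = 0.265) did not pass; 0.173% of genes were called lower. Of these 2 calls 1 was left, that of Ccl5, without either untreated, TNF or IFNG library or the second library with both cytokines. With library weights or without the intensity trend 1 was left, and 0 with only the 2 groups fitted. Cxcl1 differed here by -4.39 without the first and -2.76 without the second supernatant library. Against IFNG alone the differences were 0.68 ± 0.52 for Cxcl1, 1.05 ± 0.43 for Ccl2, 0.06 ± 0.16 for Ccl5 and 1.75 ± 0.42 for Ccl7, and none passed (adjusted p = 0.9998 for each), as 0.00786% of genes, or 1 gene, did.

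The order of the in vitro groups was the same for Cxcl1 and Ccl2, with mean levels of 7.55 and 9.90 log2 CPM with TNF, 6.72 and 8.34 with TNF + IFNG, 3.15 and 6.52 with supernatant, 2.47 and 5.47 with IFNG, and 4.08 and 6.68 in untreated cells. For both genes untreated cells came next below TNF + IFNG, and the difference between those groups was the one between neighbours that passed. Ccl5 ran from 7.44 with TNF + IFNG and 6.73 with TNF to 5.57 with supernatant, 5.50 with IFNG and 5.40 in untreated cells. There the step between TNF and supernatant passed, and the last 3 groups lay within 0.17 of each other. Ccl7 ran from 4.36 with TNF and 3.42 with TNF + IFNG to 2.37 with supernatant, 1.81 in untreated cells and 0.62 with IFNG, and no step between neighbours passed.

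In co-culture with OT1 T cells all 4 chemokines were far above MC38 alone, under either antibody. Ccl2 had the largest rise of the 4. It stood at 11.70, 11.37 and 11.37 log2 CPM in the isotype co-cultures and 11.87, 11.87 and 11.91 in the anti-PD1 co-cultures, against 6.45, 6.51 and 6.43 in MC38 alone; equal values arise because normalization gives a rank the same value in each library. That was 32.4-fold with isotype (5.02 ± 0.11, adjusted p = 5.83e-09) and 42.8-fold with anti-PD1 (5.42 ± 0.11, adjusted p = 2.67e-09). By CPM it moved up to rank 24 to 41 of 12948 genes with isotype and 18 to 19 with anti-PD1, against rank 1702 to 1793 in MC38 alone.

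The nearby gene Ccl7 showed the next largest rise. Ccl7 stood at 5.98, 5.95 and 5.71 log2 CPM with isotype and 5.78, 6.11 and 6.28 with anti-PD1, against 2.16, 2.13 and 1.21 in MC38 alone. It rose 16.5-fold with isotype (4.05 ± 0.25, adjusted p = 3.14e-06) and 18.7-fold with anti-PD1 (4.22 ± 0.25, adjusted p = 2.23e-06). The lowest value in MC38 alone, that of the third library, rests on about 9 reads. Cxcl1 stood at 7.09, 6.53 and 6.78 log2 CPM with isotype and 6.80, 7.22 and 7.47 with anti-PD1, against 3.52, 2.58 and 3.99 in MC38 alone. It rose 10.8-fold with isotype (3.43 ± 0.32, adjusted p = 6.04e-05) and 13.9-fold with anti-PD1 (3.80 ± 0.32, adjusted p = 2.97e-05), and the libraries of MC38 alone spread most for this gene, over 1.41 on the log2 scale.

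Ccl5 had the smallest rise in co-culture, as it had with TNF. It stood at 10.10, 10.25 and 10.16 log2 CPM with isotype and 10.14, 10.02 and 9.89 with anti-PD1, against 8.10, 8.03 and 7.92 in MC38 alone. The rise was 4.44-fold with isotype (2.15 ± 0.10, adjusted p = 5.12e-07) and 3.99-fold with anti-PD1 (2.00 ± 0.10, adjusted p = 7.76e-07). All 4 members passed in both comparisons, where 7.64% of genes were called higher with isotype and 8.42% with anti-PD1, and all 4 did so in each of 17 alternatives, among them leaving out the third library of MC38 alone and the third anti-PD1 library together. The comparisons share the libraries of MC38 alone.

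The T cell markers moved with these results, and in a bulk library a change in the share of cells and a change of RNA per cell cannot be told apart. All 16 measured markers were at 1 CPM or more in each co-culture but 1 with 15, and their sum was 183 to 222 CPM with isotype and 175 to 209 CPM with anti-PD1, against 5.09, 5.27 and 85.8 CPM in MC38 alone. The third library of MC38 alone, with 14 of the 16 at 1 CPM or more, had 7.92 log2 CPM of Ccl5, 6.43 of Ccl2 and 1.21 of Ccl7, the lowest value of its group for each, and 3.99 of Cxcl1, the highest. In vitro, where no T cells were added, 3 of the 20 T cell markers were measured and summed to 0.554 to 9.16 CPM. Myeloid markers, of which 3 of 10 were measured in the co-culture table, summed to 6.35 to 34.4 CPM with isotype and 5.20 to 14.0 CPM with anti-PD1, against 7.22 to 13.6 CPM in MC38 alone.

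**Figure D3:**
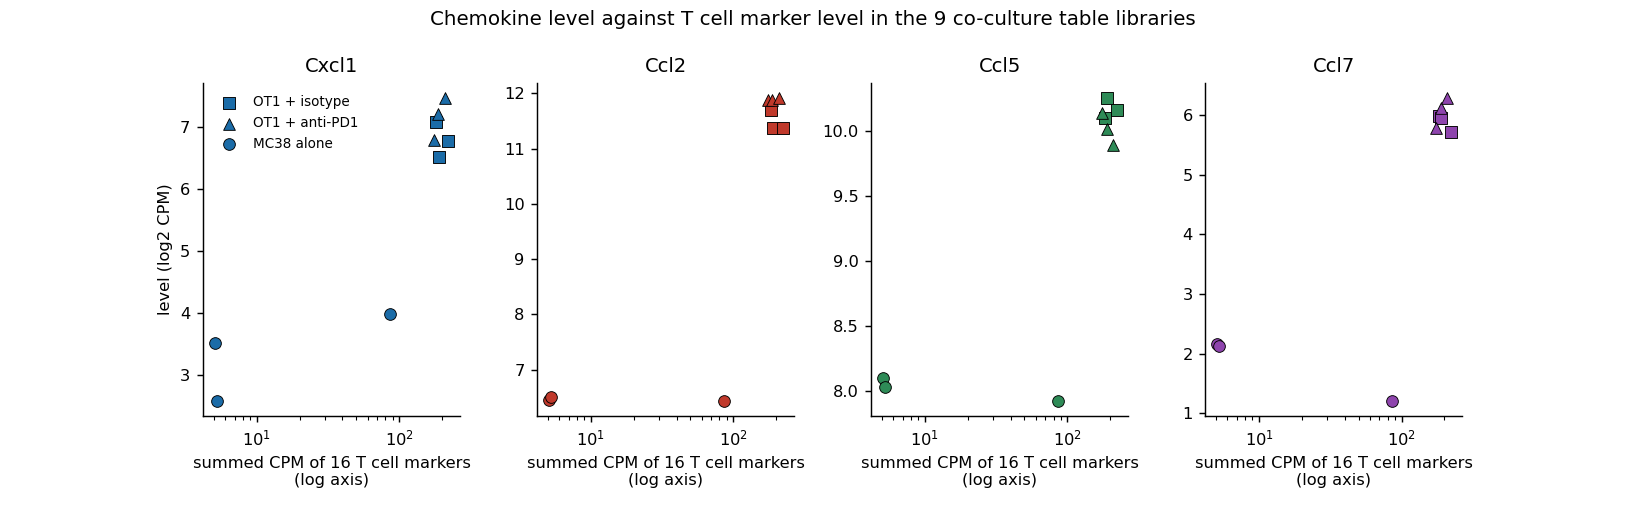
Level of each gene (log2 CPM, y axis) against the summed CPM of 16 T cell markers (x axis, log scale) in the 9 libraries of the co-culture table; squares are isotype co-cultures, triangles anti-PD1 co-cultures and circles MC38 alone. The circle at 85.8 CPM is the third library of MC38 alone, whose Ccl5, Ccl2 and Ccl7 are no higher than in the other circles. Ifng was the largest of the markers in each co-culture and stood at 1.85 log2 CPM in that library.

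The monocyte attractant Ccl2 and the T cell attractant Ccl5 changed by unequal amounts. Ccl2 minus Ccl5 within a library was 1.60, 1.12 and 1.21 on the log2 scale with isotype and 1.73, 1.85 and 2.02 with anti-PD1, against -1.66, -1.52 and -1.49 in MC38 alone. In vitro the same difference was 3.46 and 2.87 with TNF, 0.18 and -0.24 with IFNG, 0.51 and 1.29 with TNF + IFNG and 1.86 and 0.05 with supernatant, against 0.96 and 1.60 in untreated cells. The change of this difference between groups can be read, but its sign in 1 library also depends on how well each transcript was captured. These are descriptions and were not tested apart from the changes of each gene.

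Anti-PD1 co-cultures were close to isotype co-cultures for all 4 genes. The log2 differences were 0.40 ± 0.11 for Ccl2 (95% interval 0.16 to 0.65), 0.37 ± 0.32 for Cxcl1 (-0.34 to 1.08), 0.17 ± 0.25 for Ccl7 (-0.38 to 0.73) and -0.16 ± 0.10 for Ccl5 (-0.38 to 0.07). For Ccl2 each anti-PD1 library lay above each isotype library, as for 6.11% of genes, and its unadjusted limma p was 0.00414. After adjustment p was 0.9998 for all 4. Of 12707 genes limma called 0% in this comparison, or 0 genes, and 347 had an unadjusted p under 0.05. Without the third anti-PD1 library and the third library of MC38 alone, again 0 of the 4 passed.

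Among other chemokines, Cxcl9, Cxcl10 and Cxcl11, the ligands of CXCR3 that attract T cells, had the largest changes with TNF + IFNG and with supernatant against untreated cells. The list of 34 other chemokines had 6 measured in vitro, and TNF + IFNG raised 3 of them against untreated cells: Cxcl11 by 6.88 ± 0.48, Cxcl9 by 5.73 ± 0.23 and Cxcl10 by 4.31 ± 0.26 (limma adjusted p = 0.000169, 1.09e-05 and 6.63e-05). The 3 that did not pass were Cx3cl1, Ccl4 and Ccl25. Untreated levels were low for Cxcl11, at -2.12 and -1.18 log2 CPM, and for Cxcl9, at 0.52 and 0.28. The sizes of their changes against untreated cells thus depend on how low values were set. The same 3 CXCR3 ligands rose with supernatant, Cxcl11 by 4.61 ± 0.48, Cxcl10 by 3.34 ± 0.26 and Cxcl9 by 2.84 ± 0.23 (adjusted p = 0.00243, 0.000442 and 0.000442), in the libraries where none of the 4 chemokines was called. IFNG alone raised Cxcl10 by 2.66 ± 0.26 and Cxcl9 by 2.26 ± 0.23 (adjusted p = 0.00198 and 0.00208), and TNF alone raised 1 of the 6, Cxcl10, by 2.18 ± 0.26 (adjusted p = 0.0139). Of all genes 4.77% were called higher with TNF + IFNG, 0.448% with supernatant, 0.354% with IFNG and 0.259% with TNF. The median log2 change of the 6 was 2.72 with TNF + IFNG, 1.68 with supernatant, 1.14 with IFNG and 1.22 with TNF, each against untreated cells, where that of all genes was between 0.01 and 0.04. Cxcl9 also had a positive interaction of the cytokines (4.15 ± 0.32, adjusted p = 0.00492), in contrast to the 4 genes described here, whose interactions were not called; the difference between genes was not tested.

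In co-culture 12 of the 34 were measured and 10 rose against MC38 alone under either antibody, while Ccl25 and Ccl27a did not pass. Of all genes 7.64% were called higher with isotype and 8.42% with anti-PD1. With isotype the largest changes were those of Cxcl9 (8.82 ± 0.58, adjusted p = 4.68e-06) and Cxcl11 (7.20 ± 0.39, adjusted p = 1.12e-06). Among the relatives of Ccl2 on chromosome 11, Ccl12 rose by 4.85 ± 0.45 and Ccl8 by 3.36 ± 0.59 (adjusted p = 5.56e-05 and 0.00387). Xcl1 (6.30 ± 0.88), Ccl3 (5.64 ± 0.53), Ccl4 (4.53 ± 0.17) and Ccl1 (4.21 ± 0.57), which activated T cells make, rose as well (adjusted p = 0.00101, 6.27e-05, 1.21e-07 and 0.000763), beside the T cell markers given above. In MC38 alone the mean log2 CPM was -2.20 for Ccl12, -0.79 for Ccl8, -1.25 for Xcl1, -1.86 for Ccl3 and -1.42 for Ccl1. These levels lie near the floor, so the sizes of these changes depend on how low values were set. The same holds for Cxcl9 and Cxcl11, which also stood low in MC38 alone, at means of 0.34 and 0.60. Cx3cl1 rose by 2.61 ± 0.24 (adjusted p = 5.32e-05). The median over the 12 was 4.69 with isotype and 4.95 with anti-PD1, against -0.06 for all genes in both comparisons.

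**Figure D4:**
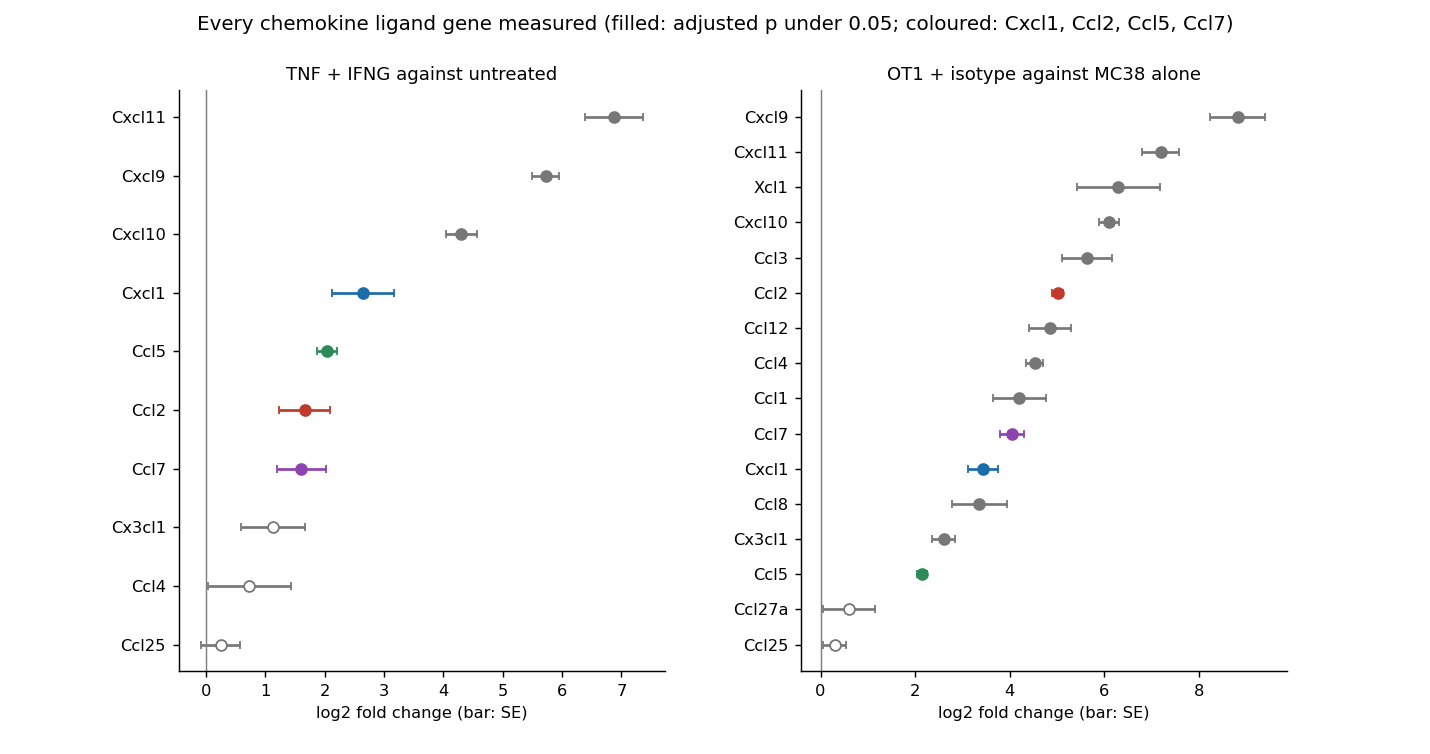
Log2 fold change with its SE of every chemokine gene measured, for TNF + IFNG against untreated cells (left, 10 genes) and for isotype co-cultures against MC38 alone (right, 16 genes). Cxcl1, Ccl2, Ccl5 and Ccl7 are coloured, and filled points passed an adjusted p of 0.05. The 3 CXCR3 ligands lie above the 4 coloured genes in both panels.

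Of 12 receptors on the list 2 were measured, Ackr3 and Ccrl2, so the receptors of these chemokines on leukocytes were not analysed here. Ccrl2, which encodes an atypical receptor that binds without signalling in the usual way, rose by 4.63 ± 1.00 with TNF + IFNG against untreated cells (adjusted p = 0.0329), by 4.96 ± 0.31 in isotype co-cultures (3.72e-06) and by 5.23 ± 0.31 in anti-PD1 co-cultures (2.39e-06) against MC38 alone. With TNF alone Ccrl2 differed by 4.89 ± 1.00 from untreated cells, which did not pass (adjusted p = 0.163). Its untreated level, -3.44 and -3.60 log2 CPM, lies near the floor, as does its level in MC38 alone, -1.29, -1.63 and -0.34. The sizes of its changes in vitro and in co-culture thus depend on how low values were set. Ackr3 passed in none of these.

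On a list of 30 genes from the TNF receptor to NF-kB, 4 rose, 0 fell and 26 did not pass with TNF against untreated cells, where 0.259% of all genes were called higher: Nfkbia (3.39 ± 0.14), Nfkbie (3.17 ± 0.27), Tnip1 (1.57 ± 0.24) and Relb (1.29 ± 0.17), with adjusted p of 3.4e-05, 0.0027, 0.0417 and 0.0225. Nfkbia and Nfkbie encode inhibitors that hold NF-kB in the cytoplasm, Tnip1 a partner of the inhibitor A20, and Relb an NF-kB subunit. With TNF + IFNG 13 rose and 1 fell (4.77% of all genes were called higher and 4.25% lower), the largest rise being that of Nfkbie (3.74 ± 0.27, adjusted p = 0.000205). None of the 30 passed with IFNG or with supernatant against untreated cells. In co-culture 13 rose and 0 fell against MC38 alone with isotype and likewise with anti-PD1, led by Nfkbia (3.91 ± 0.09, adjusted p = 6.31e-09, with isotype), beside 7.64% and 8.42% of all genes called higher. The median log2 change of the list was 0.49 with TNF, 0.79 with TNF + IFNG and 0.58 with isotype, where that of all genes was 0.01, 0.02 and -0.06.

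Genes of the IFNG pathway were called also in groups where no member of the chemokine set was. On a list of 14 genes of IFNG signalling, 4 rose with IFNG and 5 with supernatant against untreated cells. Of all genes, 0.354% and 0.448% were called higher in these comparisons. Irf1 rose by 3.06 ± 0.12 with IFNG and 3.18 ± 0.12 with supernatant, and Stat2 by 2.65 ± 0.18 and 2.75 ± 0.18 (adjusted p = 1.49e-05 and 1.38e-05 for Irf1, 0.000267 and 0.0002 for Stat2). TNF alone raised 1 of the 14, Irf1 (2.47 ± 0.12, adjusted p = 6.21e-05), and TNF + IFNG raised 7, beside 0.259% and 4.77% of all genes called higher. In co-culture 11 rose with isotype, and 12 rose and 1 fell with anti-PD1, against MC38 alone. Of all genes 7.64% were called higher with isotype, and 8.42% higher and 7.71% lower with anti-PD1. The list medians were 1.14 with IFNG, 1.24 with supernatant, 0.37 with TNF, 1.17 with TNF + IFNG and 1.39 with isotype. Those of all genes were 0.04, 0.01, 0.01, 0.02 and -0.06.

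Of 9 genes for decay or stability of chemokine messages, Zfp36, whose protein binds ATTTA repeats of the kind shown for Cxcl1, had the largest change. Zfp36 rose by 2.27 ± 0.42 with TNF + IFNG against untreated cells (adjusted p = 0.0229). It rose by 5.18 ± 0.47 in isotype co-cultures and by 5.38 ± 0.47 in anti-PD1 co-cultures against MC38 alone (adjusted p = 4.88e-05 and 3.73e-05). In total 1 of the 9 rose and 2 fell with TNF + IFNG, 2 rose and 2 fell in each co-culture comparison, and none passed with TNF, IFNG or supernatant against untreated cells. Of all genes 4.77% were called higher and 4.25% lower with TNF + IFNG, 7.64% and 6.22% with isotype and 8.42% and 7.71% with anti-PD1. Zfp36 and Cxcl1 thus stood high together in co-culture, which says nothing of decay, since message stability was not measured.

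Across the 10 in vitro libraries the genes whose levels followed the chemokines most closely were sought among 6266 that varied by at least 1 on the log2 scale. Cxcl1 was followed most closely by 3110043O21Rik (Pearson r = 0.981), Ripk2 (0.978), which encodes a kinase upstream of NF-kB, and Ccl2 (0.971). For Ccl2 they were 3110043O21Rik (0.973), Cxcl1 (0.971) and Schip1 (0.971), and for Ccl7 Nrip1 (0.963), Schip1 (0.951) and Ccl2 (0.939). Ccl5 had others, Extl1 (0.981), Kctd11 (0.980) and Tnip1 (0.977), and its r with Ccl2 was 0.723. In the 9 co-culture libraries, over 6848 genes, the closest were Ly6i (0.997) for Cxcl1, Csf1 (0.998), which encodes the macrophage growth factor M-CSF, for Ccl2, Mfhas1 (0.998) for Ccl5 and Ube2l6 (0.997) for Ccl7. There the 4 chemokines had r of 0.948 to 0.990 with each other. Such values describe these libraries, which fall into groups and share their normalization.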

How the data were processed

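RNA of MC38 cultures, with or without OT1 T cells, was profiled in 19 libraries made with the QuantSeq 3′ kit, per the labels' protocols. A further 9 libraries, described as OT1 T cells, are not analysed here. Tools named in the submitters' processing notes are HISAT2, featureCounts of Subread, limma, cutadapt 1.7 and FastQC. The values the authors deposited are log2 CPM (read from the values, which sum to 993229 to 998505 CPM in each library), quantile normalized in each of 2 tables apart; depth is inferred from the tied steps of low values and covers counting error only. Coordinates are GRCm38 (GENCODE M21); the build the authors used was not needed, since genes were matched by symbol. Among gene names in vitro, 15 had turned into dates and are not named.

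A linear model over all groups was fitted to each of the tables (limma 3.58.1, R 4.3.3; empirical Bayes moderation with an intensity trend). Genes had to reach a log2 value of 0 in 2 libraries in vitro or in 3 of the co-culture table. This removed 0 genes in vitro and 239 in co-culture, and 1 and 2 genes with a constant value were left out, so that 12720 genes were tested in vitro (5 residual and 3.74 prior degrees of freedom) and 12707 in co-culture (6 and 4.12). P-values are 2-sided, adjusted by the Benjamini-Hochberg method over all genes tested, with a threshold of 0.05; intervals are 95%. The fit was tested on simulated data. Named genes were the 4 chemokines, the measured genes of the chemokine and receptor lists, up to 4 called genes with the largest change per comparison of the other lists, and the 3 genes of highest correlation with each chemokine; 1 gene that the rule names is not reported here. The genes and lists were chosen with earlier results of these data known. Samples were grouped by their labels. Replicate numbers showed little sign of pairing: deviations from group means correlated above 0.1 for 0 of 20 same-numbered pairs in vitro and 1 of 9 in co-culture. In vitro each value stands 2 times among the 20, since the deviations of 2 libraries mirror each other, so the check is weak there. Alternatives were the filter, trend, library weights, groups fitted, scaling to 10 housekeeping genes, a replicate block and each library left out.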

Additional observations from a re-analysis of the deposited data

How the results depend on the processing

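In co-culture, all 4 chemokines passed against MC38 alone, and 0 passed between the antibodies, in each of 17 alternatives, one of them chosen after the data were seen (the third libraries of MC38 alone and anti-PD1 left out together). In vitro, with 2 libraries a group, calls were both lost and gained, and leaving out 1 library moved some changes of Cxcl1, Ccl2 and Ccl7 by over 1.5 times, as given with those results; Ccl7 with IFNG, not called, ranged from -1.91 to -0.48 against untreated cells. TNF against untreated cells gave 4 calls with only those groups fitted and 4 under housekeeping scaling (as reported, 3). Without the intensity trend, 0 members passed for TNF and 1 for TNF + IFNG against untreated cells, 1 for TNF + IFNG against IFNG and 1 for supernatant against TNF + IFNG. With only the compared groups fitted, 2 passed for IFNG against untreated cells (as reported, 0), 2 for TNF + IFNG against untreated cells, and 0 for TNF + IFNG against IFNG, supernatant against TNF + IFNG and supernatant against TNF. Library weights gave 1 for IFNG and 2 for TNF + IFNG against untreated cells and 1 for supernatant against TNF + IFNG, and the stricter filter (log2 of at least 2) gave 2 for TNF + IFNG against IFNG. Leaving out each library in turn gave 0 to 3 for TNF against untreated cells, 1 to 4 for TNF + IFNG against untreated cells, 1 to 4 for TNF + IFNG against IFNG, 1 to 2 for supernatant against TNF + IFNG and 0 to 3 for supernatant against TNF. Where a library is left out, its mate is assumed to vary like the other groups; otherwise the cause was not tested.

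With the replicate block, 2 members passed for TNF + IFNG against untreated cells, 2 for TNF + IFNG against IFNG, 1 for supernatant against TNF + IFNG and 2 for TNF against untreated cells; other counts of calls were as reported. The numbers showed little sign of pairing, with correlations of -0.29 to 0.09 between same-numbered libraries in vitro and -0.07 to 0.10 in co-culture.

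Direction turned only for values that were not called. With each library left out in turn, supernatant against untreated cells ranged from -0.83 to 0.52 for Ccl2 (0.09 without the second untreated library) and from -0.058 to 0.39 for Ccl5, and supernatant against IFNG from -0.16 to 0.29 for Ccl5 and from -0.14 to 1.496 for Cxcl1, in each case with the 2 supernatant libraries at the ends. The interaction ranged from -0.46 to 0.97 for Ccl7, by the IFNG library left out, and from -0.70 to 0.0018 for Ccl2, by the library with both cytokines left out. Scaling to 10 housekeeping genes shifted all log2 changes by 0.22 and 0.28 for isotype and anti-PD1 against MC38 alone, and by 0.06 to 0.13 for the groups against untreated cells; it turned no direction of the 4 genes.

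Depth limits Ccl7 most, with about 8 to 35 reads per library in IFNG, untreated and MC38-alone libraries.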

Other observations

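The level of Ccl5 in MC38 cells with no treatment stood at a different place in the 2 tables, whereas the ranges of Ccl2 overlapped. By CPM within a library, Ccl5 ranked 520 to 593 from the top among the libraries of MC38 alone in the co-culture table and 3339 to 3582 among the untreated libraries of the in vitro table. Ccl2 ranked 1702 to 1793 in the co-culture table and 1338 to 1914 in the in vitro table, and Ccl7 ranked 9500 to 10646 and 9772 to 9837. The tables hold 12948 and 12721 genes, and were normalized separately, and the difference was not tested.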
